A study of Mus musculus with 12 samples.

Results

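Transcript levels of 9 genes listed for roles in surface epithelium were followed in calvariae, the bones of the skull roof. The RNA came from C57BL/6 mouse embryos at embryonic day 17.5. The genes were taken by symbol from the 39179 Ensembl gene identifiers in the count files as a list of names, with no threshold on any measured value. The list was, however, chosen with earlier results of these data known, so its share of called genes is not that of a blind choice. They are the transcription factor genes Trp63, Grhl1, Grhl2, Grhl3, Klf4 and Ovol1, the splicing regulator gene Esrp1, and the adhesion genes Cdh1 and Epcam. There were 12 libraries in 4 groups of 3: Runx2+/- embryos of dams given MS-275, Runx2+/- embryos of dams given vehicle, wild-type (WT) embryos of dams given MS-275, and WT embryos of dams given vehicle. MS-275, also named entinostat, inhibits histone deacetylases of class I, and Runx2 is the transcription factor required for bone-forming cells. The labels' protocols give matings of 8-week-old parents and intraperitoneal injections of the dams at 14.5 and again at 16.5 days post coitum, each of 10 mg/kg in the drug groups. The labels name neither the vehicle nor the deleted part of Runx2, and they do not say whether the 3 libraries of a group came from separate embryos or litters. The p-values below therefore measure the spread between these libraries, which may be technical.

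Surface epithelium is held together by adherens junctions, in which E-cadherin, the product of Cdh1, binds the same protein on the neighbouring cell and is anchored inside by catenins. Trp63 encodes p63, the factor that commits surface ectoderm to stratified epithelium and keeps the basal layer of epidermis. The grainyhead-like factors encoded by Grhl1, Grhl2 and Grhl3 act in epithelial junctions and in formation of the skin barrier, and GRHL2 is known to activate Cdh1. Klf4 is required for the skin barrier in mice and is also expressed outside epithelium. Ovol1 encodes a zinc finger factor of keratinocytes that leave the basal layer, and Esrp1 encodes an RNA-binding protein that sets splice forms typical of epithelial cells. Epcam encodes an adhesion protein that is abundant in simple and progenitor epithelia.

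All 9 are protein-coding genes, placed here on GRCm38 by GENCODE M21. Trp63 lies on the plus strand at chr16:25683763-25892102, Grhl1 on the plus strand at chr12:24572283-24617391 and Grhl2 on the plus strand at chr15:37233036-37363569. Grhl3 lies on the minus strand at chr4:135541888-135573630, Klf4 on the minus strand at chr4:55527143-55532466 and Ovol1 on the minus strand at chr19:5549136-5560646. Esrp1 lies on the minus strand at chr4:11331933-11386783, Cdh1 on the plus strand at chr8:106603351-106670246 and Epcam on the plus strand at chr17:87635979-87651129. The sources used here do not give the strand setting of the read counting, and Grhl2 overlaps the antisense gene Gm16136. Gm16136 had 3, 13 and 141 counts in Runx2+/- MS-275, 208, 169 and 85 in Runx2+/- vehicle, 3, 4 and 2 in WT MS-275 and 222, 84 and 129 in WT vehicle, so that it was low in the same libraries as Grhl2. Reads of the pair cannot be told apart without strand, and the Grhl2 values are uncertain to that extent.

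RefSeq promoter windows (GRCm38.p6) were matched by symbol for 4 of the 9 genes, Grhl1 with a pair of start sites, and Grhl3, Klf4 and Epcam with a single start site each. The 250 bases before the start are shown for Epcam and Grhl3, which fell in WT MS-275 libraries, and for Klf4, which did not. They span chr17:87635729-87635978 (plus strand) for Epcam, chr4:135573633-135573882 (minus strand) for Grhl3 and chr4:55532476-55532725 (minus strand) for Klf4. Each is written 5′ to 3′, and capitals mark the E-box CACCTG on either strand, a sequence that the SNAIL and ZEB repressors of Cdh1 are known to bind.
Epcam: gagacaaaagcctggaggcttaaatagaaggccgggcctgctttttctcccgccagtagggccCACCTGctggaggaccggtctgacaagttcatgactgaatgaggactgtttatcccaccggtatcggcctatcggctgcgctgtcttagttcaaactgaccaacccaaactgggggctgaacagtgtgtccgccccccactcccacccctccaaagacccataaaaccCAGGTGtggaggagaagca
Grhl3: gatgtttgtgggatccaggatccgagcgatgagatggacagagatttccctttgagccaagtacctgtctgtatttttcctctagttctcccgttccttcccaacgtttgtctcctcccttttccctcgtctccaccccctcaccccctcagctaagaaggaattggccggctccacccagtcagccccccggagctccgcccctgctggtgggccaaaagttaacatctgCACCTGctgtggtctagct
Klf4: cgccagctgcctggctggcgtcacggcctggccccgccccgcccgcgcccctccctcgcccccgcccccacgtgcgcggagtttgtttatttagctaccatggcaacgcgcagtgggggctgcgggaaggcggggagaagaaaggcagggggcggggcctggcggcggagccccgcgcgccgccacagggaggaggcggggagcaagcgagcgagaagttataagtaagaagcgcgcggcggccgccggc
Counted from the RefSeq start site, the Epcam window held CACCTG at -187 and -19, and the Grhl3 window at -19 and at 9, within the 50 bases after the start that are not shown. The first bases after the start were found in a GENCODE M21 transcript for Grhl1 and Epcam, but not for Grhl3 or Klf4. No match was found in the Klf4 window or in either Grhl1 window, while 20.2% of 32851 RefSeq promoter windows of 300 bases held it. The Krüppel-like motif CACCC, searched on both strands, was found in the Grhl3 window at -117, -109 and -76, in the Epcam window at -44 and in the window of the other Grhl1 start site at -81 and -29, and 57.5% of all windows held it. The grainyhead motif AACCGGTT was in none of the 5 windows (0.146% of all windows), nor was TATAAA on either strand (13.6%). These matches describe letters only.

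Counts in genes were 13307456 to 19399760 per library. Levels are given as CPM, counts relative to a library total that was scaled by TMM, a trimmed mean over genes, and differences as log2 fold changes from the quasi-likelihood test of edgeR across 17967 genes, with a threshold of 0.05 on the Benjamini-Hochberg adjusted p. All 9 genes passed the filter on low counts. Replicate 3 of Runx2+/- MS-275 stood apart from replicates 1 and 2. Its share of uniquely aligned reads in no gene was 22.2%, against 6.36% and 8.65% in replicates 1 and 2, 5.21% to 6.28% in the WT MS-275 libraries and 10.5% to 16.8% in the 6 vehicle libraries. Replicate 3 of each vehicle group held few of the lens transcripts that the other vehicle libraries held, as given below. These replicates 3 are the 3 libraries that stand apart. Runx2 itself had 84.1, 93.5 and 34.1 CPM in Runx2+/- MS-275, 65.3, 32.8 and 58.1 CPM in Runx2+/- vehicle, 111, 131 and 88.2 CPM in WT MS-275 and 45.5, 42.4 and 46.1 CPM in WT vehicle. Its counts did not separate the vehicle genotypes (log2 fold change 0.22, SE 0.36, edgeR adjusted p = 1), and reads outside a deleted part would still count, so genotypes are given as labelled.

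In WT vehicle calvariae all 9 genes were measured. Per kilobase of annotated exon, the highest were Klf4 at 24.2 ± 10.9, Epcam at 17.1 ± 0.796 and Cdh1 at 15.5 ± 2.13 CPM per kb (mean ± SD, n = 3). Esrp1 at 5.84 ± 1.32, Trp63 at 5.14 ± 1.65, Grhl1 at 3.90 ± 1.65 and Grhl3 at 3.39 ± 1.46 CPM per kb followed. Ovol1 at 2.61 ± 1.09 and Grhl2 at 1.92 ± 0.219 CPM per kb were the lowest. Between neighbours in this order the ranges of mean ± SD overlapped, except between Cdh1 and Esrp1. Over the 4 groups, mean levels ran from high to low as WT vehicle, Runx2+/- vehicle, Runx2+/- MS-275 and WT MS-275 for Trp63, Grhl1, Grhl2, Grhl3, Ovol1 and Esrp1. For Cdh1 and Epcam, Runx2+/- vehicle came before WT vehicle with the other groups in the same order. Klf4 alone was highest in WT MS-275 and lowest in Runx2+/- MS-275. Of groups next to each other in these orders, those without overlap between libraries were the vehicle groups for Epcam and the MS-275 groups for Epcam.

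The first question was what differed with the drug in WT embryos, WT MS-275 against WT vehicle. Of the 9 genes, 7 fell and 0 rose: Trp63, Grhl1, Grhl2, Grhl3, Ovol1, Esrp1 and Epcam. Of all genes tested, 9.94% were called lower and 10.3% higher, 20.2% in all. The median log2 fold change was −5.60 over the 9 genes and −0.13 over all genes tested. The WT libraries of these 7 genes did not overlap, as was the case for 27.5% of all genes in the lower and 27.3% in the higher direction. In bulk tissue, fewer epithelial cells and less RNA per cell cannot be told apart.

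Trp63 stood at 0.977, 1.31 and 0.345 CPM in WT MS-275, against 45.03, 28.4 and 55.9 CPM in WT vehicle. Every treated WT library was near 0, with 15, 16 and 4 counts, and every vehicle library was high. The difference was −5.60 on the log2 scale (SE 1.34, edgeR adjusted p = 0.0424). The adjusted p was the same 0.0424 for all 7 genes by edgeR, since the Benjamini-Hochberg procedure ties neighbouring ranks.

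Grhl1 stood at 0.521, 0.164 and 0.345 CPM in WT MS-275 and at 31.9, 14.4 and 18.5 CPM in WT vehicle, a log2 fold change of −5.92 (SE 1.44). Grhl2 stood at 0.195, 0.409 and 0.0863 CPM in WT MS-275 and at 18.7, 15.5 and 15.4 CPM in WT vehicle, a log2 fold change of −6.12 (SE 1.14). Grhl3 had 0, 3 and 0 counts in WT MS-275 and 341, 95 and 188 counts in WT vehicle, or 13.6, 5.48 and 9.29 CPM. All 3 grainyhead-like genes were thus near 0 in each treated WT library. At so few counts the size of the Grhl3 difference is loosely bounded: the 3 counts in WT MS-275 against 624 in WT vehicle give a level 130-fold lower, with a 95% exact binomial interval of 44.3 to 632 that covers counting error only.

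Ovol1 stood at 0.521, 0.737 and 0.949 CPM in WT MS-275 and at 11.7, 4.73 and 10.8 CPM in WT vehicle, a log2 fold change of −3.63 (SE 0.95). Klf4, by contrast, was not called. Its levels were 108, 121 and 84.7 CPM in WT MS-275 and 70.1, 42.7 and 109 CPM in WT vehicle, ranges that overlap. The log2 fold change of Klf4 was 0.50 (SE 0.40, 95% interval −0.38 to 1.38, edgeR adjusted p = 0.32), and it was −0.28 when scaled by library size only.

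Esrp1 stood at 0.391, 0.246 and 0.259 CPM in WT MS-275 and at 44.8, 28.2 and 37.4 CPM in WT vehicle. The log2 fold change was −6.89 (SE 1.43), with 6, 3 and 3 counts in the treated libraries. Epcam stood at 4.04, 1.47 and 1.64 CPM in WT MS-275 and at 38.8, 35.5 and 38.3 CPM in WT vehicle, a log2 fold change of −3.96 (SE 0.58). Epcam transcripts were still counted in each treated library, with 62, 18 and 19 counts.

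Cdh1 was not called. Its levels were 76.4, 37.2 and 30.2 CPM in WT MS-275 and 79.5, 60.3 and 72.6 CPM in WT vehicle, so that replicate 1 of WT MS-275 lay within the vehicle range and replicates 2 and 3 lay below it. The log2 fold change was −0.56 (SE 0.33, 95% interval −1.30 to 0.18, edgeR adjusted p = 0.195). With no scaling beyond library size, where the median over all genes was −0.95, Cdh1 passed at −1.32 (edgeR adjusted p = 0.0381). In that fit 39.5% of all genes were called lower. A ratio within a library does not depend on the scaling. Counts of Epcam were 5.28%, 3.96% and 5.43% of those of Cdh1 in WT MS-275, against 48.7%, 58.9% and 52.7% in WT vehicle. Esrp1 counts were 0.511%, 0.659% and 0.857% of Cdh1 counts in WT MS-275 and 56.4%, 46.8% and 51.5% in WT vehicle. Both ratios to Cdh1 were thus lower in each treated WT library than in any WT vehicle library.

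**Figure D1:**
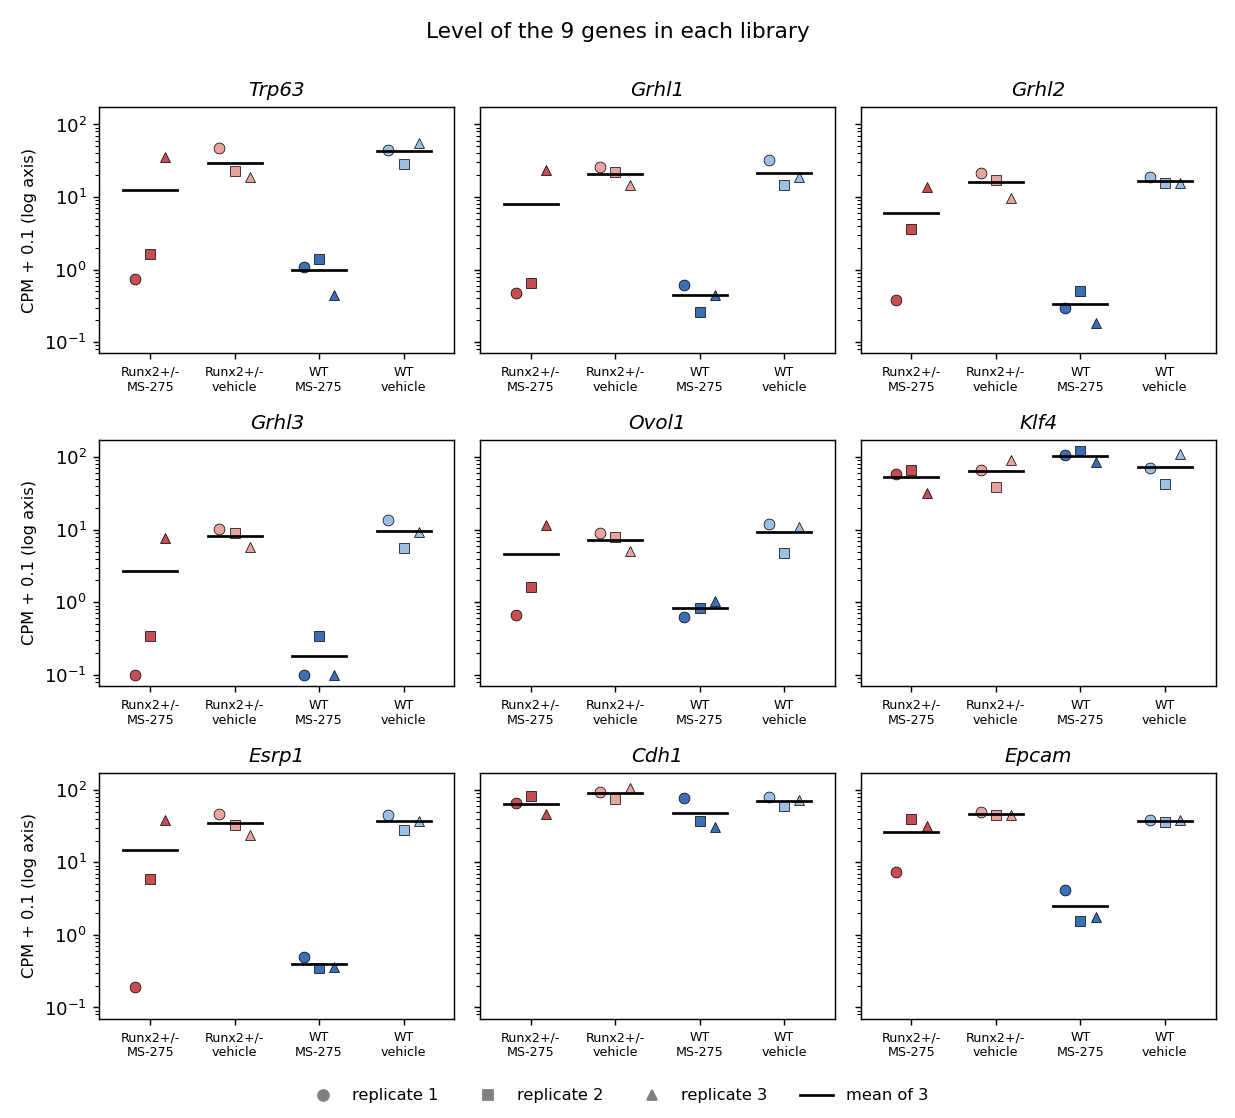
Level of each of the 9 genes in every library, as CPM + 0.1 on a log axis, by group, with a symbol for each replicate number and a line at the mean of 3. In WT MS-275, Trp63, Grhl1, Grhl2, Grhl3, Ovol1 and Esrp1 lie at or below 1.31 CPM and Klf4 and Cdh1 at 30.2 CPM or more, while in replicate 3 of Runx2+/- MS-275 those 6 genes lie within the range of the vehicle libraries.

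The 7 calls stand close to the threshold in the fit of all 12 libraries. All 7 passed without Runx2+/- MS-275 replicate 3 (edgeR adjusted p = 0.000242 to 0.00193), where 24.4% of all genes were called lower and 22.2% higher, 46.6% in all. They also passed in a fit of the 6 WT libraries alone (edgeR adjusted p = 0.000748 to 0.00469), where 23.5% of all genes were called lower and 20.8% higher. Without the 3 libraries that stand apart they passed as well (edgeR adjusted p = 6.59e-05 to 0.000918), with 31.8% of all genes called lower and 28.3% higher, and Klf4 was called higher there, at 0.89 (edgeR adjusted p = 0.0282). All 7 missed it when any of 8 single libraries was left out. By edgeR the adjusted p was then 0.129 for WT vehicle replicate 1, 0.128 for WT vehicle replicate 2, 0.0522 to 0.0739 for replicate 1 of WT MS-275, and 0.123 for its replicate 2 as for its replicate 3. It was 0.0636 and 0.0571 for replicates 1 and 2 of Runx2+/- vehicle and 0.0531 for replicate 2 of Runx2+/- MS-275. In those 8 fits 0 of all genes were called lower, and each of the 7 log2 fold changes was −3.40 or lower.

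The comparison of Runx2+/- MS-275 with Runx2+/- vehicle asks the same of heterozygous embryos, and there the 3 treated libraries were unlike each other. With all libraries 0 of the 9 genes were called by edgeR, as were 0.00% of all genes (3789 had an unadjusted p under 0.05). DESeq2 called 1220 of all genes and 0 of the 9, and limma-voom called 0 in all. Log2 fold changes lay between −1.61 for Grhl3 and −0.31 for Klf4 (edgeR adjusted p = 0.352 to 0.677). Without replicate 3 of Runx2+/- MS-275, 6 of the 9 fell, against 14.3% of all genes called lower and 18.5% higher, 32.8% in all: Trp63, Grhl1, Grhl2, Grhl3, Ovol1 and Esrp1. Each of these 6 was called in only 1 of the 12 fits with a single library left out, this one. Replicate 3, where these 6 genes lay within the range of the vehicle libraries, was singled out after values were seen. Results without it, here and below, are thus a description that depends on this choice. Without the 3 libraries that stand apart 6 were also called lower, against 28.9% of all genes called lower and 23.9% higher.

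Trp63 stood at 0.650, 1.52 and 35.6 CPM in Runx2+/- MS-275 and at 47.4, 22.7 and 18.5 CPM in Runx2+/- vehicle. Replicates 1 and 2 were near 0, and replicate 3 lay within the vehicle range. The log2 fold change was −1.21 with all libraries (SE 1.08, edgeR adjusted p = 0.537) and −4.74 without replicate 3 (SE 0.67, edgeR adjusted p = 0.00255).

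Grhl1 showed the same split, with 0.371, 0.558 and 23.2 CPM in Runx2+/- MS-275 and 25.5, 21.8 and 14.7 CPM in Runx2+/- vehicle, and a log2 fold change of −5.44 without replicate 3 (SE 0.56, edgeR adjusted p = 0.00125). For Ovol1 the levels were 0.557, 1.52 and 11.6 CPM in Runx2+/- MS-275 and 8.83, 7.71 and 5.04 CPM in Runx2+/- vehicle, with −2.77 without replicate 3 (SE 0.57, edgeR adjusted p = 0.00818). Grhl3 had 0, 3 and 173 counts in Runx2+/- MS-275 and 220, 204 and 110 counts in Runx2+/- vehicle. In the fit without replicate 3, the edgeR adjusted p of Grhl3 was 0.00541. By counts, Grhl3 was 64.3-fold lower in replicates 1 and 2 than in the vehicle libraries, with a 95% exact binomial interval of 21.9 to 313. That interval covers counting error only, not the spread between libraries, and leaves out replicate 3.

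Grhl2, Esrp1 and Epcam separated replicates 1 and 2 as well. Grhl2 stood at 0.279, 3.51 and 13.7 CPM in Runx2+/- MS-275 and at 21.5, 17.3 and 9.68 CPM in Runx2+/- vehicle, with a log2 fold change of −3.06 without replicate 3 (SE 0.78, edgeR adjusted p = 0.0177). Esrp1 stood at 0.0929, 5.82 and 37.9 CPM in Runx2+/- MS-275 and at 46.4, 32.9 and 23.5 CPM in Runx2+/- vehicle, with −3.51 without replicate 3 (SE 0.92, edgeR adjusted p = 0.0195). In replicate 2 both genes were above every WT MS-275 library and below every vehicle library, with 44 counts of Grhl2 and 73 of Esrp1.

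Epcam went further in that library. It stood at 7.34, 39.2 and 32.0 CPM in Runx2+/- MS-275 and at 48.8, 44.3 and 45.4 CPM in Runx2+/- vehicle. Replicate 2 of Runx2+/- MS-275 had 491 counts, at a level above the WT vehicle libraries and below the Runx2+/- vehicle libraries. Every treated library lay below every Runx2+/- vehicle library, as for 8.56% of all genes (6.33% in the opposite direction), but the log2 difference of −0.82 did not pass (SE 0.51, edgeR adjusted p = 0.373), nor did −0.99 without replicate 3 (edgeR adjusted p = 0.2). Epcam counts were 11.1%, 48.3% and 69.2% of Cdh1 counts in Runx2+/- MS-275, against 53.1%, 59.9% and 43.1% in Runx2+/- vehicle.

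Cdh1 stood at 66.3, 81.1 and 46.2 CPM in Runx2+/- MS-275 and at 91.8, 73.9 and 105 CPM in Runx2+/- vehicle, and Klf4 at 58.8, 66.5 and 32.0 CPM in Runx2+/- MS-275 and at 65.8, 39.1 and 90.3 CPM in Runx2+/- vehicle. The groups overlapped for both genes. The log2 fold change of Cdh1 was −0.49 (95% interval −1.22 to 0.25, edgeR adjusted p = 0.419) and that of Klf4 was −0.31 (95% interval −1.19 to 0.57, edgeR adjusted p = 0.67). Replicate 3, where the other 7 genes were at or near vehicle levels, held the lowest level of both Cdh1 and Klf4 among the Runx2+/- MS-275 libraries.

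**Figure D2:**
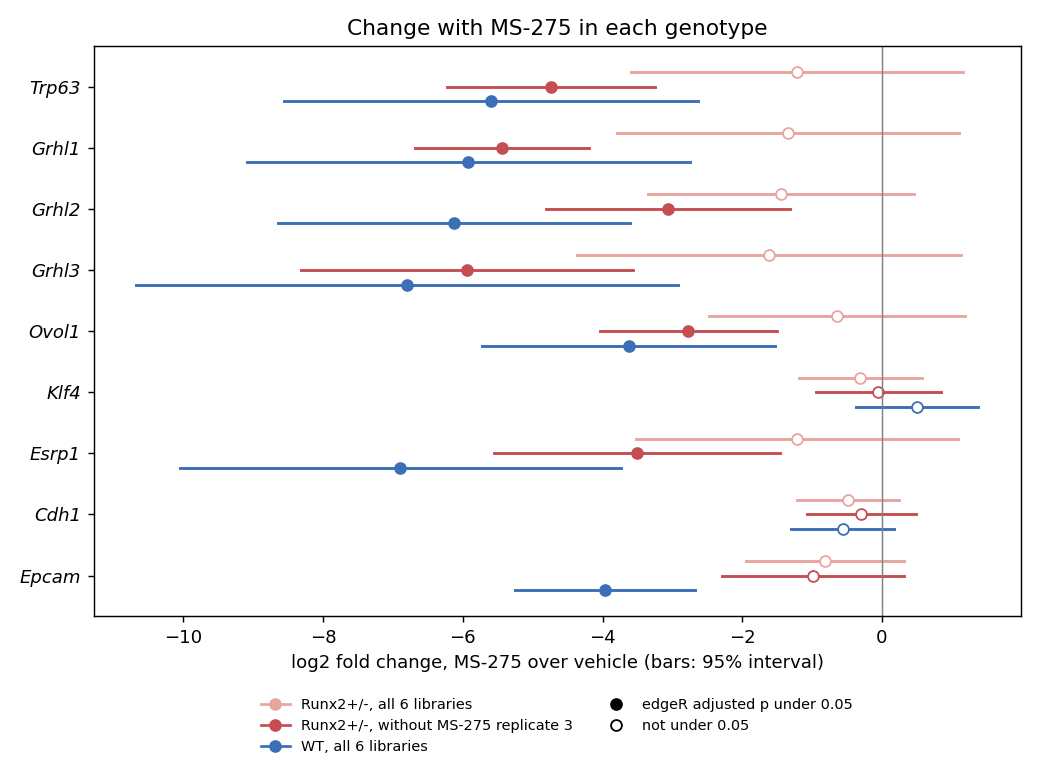
Log2 fold change of each gene, MS-275 over vehicle, with its 95% interval, for Runx2+/- with all 6 libraries, for Runx2+/- without replicate 3 of MS-275, and for WT, with filled points where the edgeR adjusted p is under 0.05. Trp63 and Grhl1 lie at −4.74 and −5.44 in Runx2+/- without replicate 3, against −5.60 and −5.92 in WT, while the intervals of Klf4 and Cdh1 include 0 in every fit shown.

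Between genotypes without the drug, 0 of the 9 genes were called, as were 0.00% of all genes by edgeR (55 genes lay below 0.05 unadjusted). The other tools, DESeq2 and limma-voom, also called 0. Log2 fold changes, Runx2+/- vehicle over WT vehicle, ran from −0.54 for Trp63 (95% interval −2.89 to 1.80) to 0.35 for Cdh1 (95% interval −0.38 to 1.09), each with an edgeR adjusted p of 1. Epcam was higher in every Runx2+/- vehicle library, at 44.3 to 48.8 CPM, than in any WT vehicle library, at 35.5 to 38.8 CPM, a separation seen in 2.69% of all genes in the higher and 2.09% in the lower direction, with a log2 fold change of 0.30 (SE 0.51). These intervals come from the fit without pairing, and all 9 include 0. Within the 3 pairs of vehicle libraries with the same number, Cdh1 and Epcam were higher in Runx2+/- in 3 of 3 and Klf4 was lower in 3 of 3. Trp63, Grhl1, Grhl2, Grhl3, Ovol1 and Esrp1 split 2 to 1. The share of all genes with 3 of 3 was not counted, and so few pairs often agree without a difference. With the replicate block, fitted to the vehicle libraries alone, the log2 fold changes were 0.34 for Cdh1, 0.30 for Epcam and −0.17 for Klf4, each with an edgeR adjusted p of 0.918.

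Between genotypes under the drug, 0 of the 9 genes were called, as were 0.00% of all genes by edgeR (2856 had an unadjusted p under 0.05). DESeq2 called 702 of all genes, 6 of the 9 among them, all higher in Runx2+/- MS-275, against 3.14% of all genes called higher and 0.768% lower. With limma-voom the number called was 0. Log2 fold changes, Runx2+/- MS-275 over WT MS-275, were 5.57 for Esrp1, 4.98 for Grhl3, 4.64 for Grhl2, 4.51 for Grhl1, 3.84 for Trp63, 3.44 for Epcam and 2.65 for Ovol1 (edgeR adjusted p = 0.261 for each). Without Runx2+/- MS-275 replicate 3 they were 0.31 for Trp63, 0.41 for Grhl1, 0.52 for Ovol1 and 0.66 for Grhl3. Those of Grhl2, Esrp1 and Epcam were 3.02, 3.28 and 3.26 in the same fit (edgeR adjusted p = 0.448 to 0.478). Without Runx2+/- MS-275 replicate 1, 3 genes were called higher: Grhl2, Esrp1 and Epcam (edgeR adjusted p = 0.0334, 0.0303 and 0.0129), against 0.120% of all genes called higher and 0.00545% lower.

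The groups did not overlap for a pair of genes. Epcam was higher in each Runx2+/- MS-275 library, at 7.34 to 39.2 CPM, than in any WT MS-275 library, at 1.47 to 4.04 CPM, as were 9.13% of all genes. Klf4 was lower in each, at 32.0 to 66.5 CPM in Runx2+/- MS-275 against 84.7 to 121 CPM in WT MS-275, as were 7.52% of all genes, and the log2 fold change was −0.997 (SE 0.40, edgeR adjusted p = 0.285). For Cdh1 the log2 fold change was 0.43 (SE 0.33, edgeR adjusted p = 0.529).

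Whether the drug difference itself differed between genotypes was tested as an interaction, the log2 fold change in Runx2+/- minus that in WT. By edgeR 0 of the 9 genes and 0.00% of all genes were called (967 had an unadjusted p under 0.05), with edgeR adjusted p-values of 0.867 or higher for each of the 9. DESeq2 called 38 genes (0.211% of all genes, all higher), 1 of the 9 among them, Epcam at 3.18 (DESeq2 adjusted p = 0.0222), and limma-voom called 0. The interaction of Epcam was 3.14 by edgeR (95% interval 1.49 to 4.79) and 2.97 without Runx2+/- MS-275 replicate 3. For Trp63 it was 4.38 with all libraries and 0.85 without that library, and for Grhl1 it was 4.58 and 0.47.

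Other genes of the same roles moved in the same comparison. The lists given here and below were chosen with earlier results of these data known, so their counts are a description and not independent evidence. For each list, the shares over all genes in WT were 9.94% called lower and 10.3% higher. In Runx2+/- without MS-275 replicate 3 they were 14.3% lower and 18.5% higher. Of 16 other regulators of epidermis, 11 fell and 0 rose in WT MS-275 relative to WT vehicle, with a median log2 fold change of −3.59. Esrp2, the close relative of Esrp1, stood at 0.195, 0.0819 and 0.259 CPM in WT MS-275 and at 23.1, 13.5 and 16.6 CPM in WT vehicle, a log2 fold change of −6.58 (SE 1.31). Zfp750, a regulator of late keratinocyte differentiation, had a log2 fold change of −5.76 (SE 1.31). Pou2f3, a POU factor of suprabasal epidermis, stood at 0.0651, 0 and 0 CPM in WT MS-275 and at 8.97, 3.17 and 9.89 CPM in WT vehicle. The 5 that did not pass, named here after their values were seen, had log2 fold changes of −4.44 (Elf5), −4.17 (Tfap2c), −2.05 (Ehf), −0.90 (Prdm1) and 1.10 (Dlx3), with edgeR adjusted p-values of 0.0572 to 0.251. In Runx2+/- none of the 16 passed with all libraries (median −1.16), and 13 fell without MS-275 replicate 3 (median −2.87).

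Among 22 other genes of epithelial junctions and the epithelial surface, 21 fell and 0 rose in WT MS-275, with a median log2 fold change of −3.17. The tight junction gene Cldn4 had a log2 fold change of −5.63 (SE 1.22), and Ap1m2, a sorting adaptor of epithelial cells, −5.08 (SE 1.19). In Runx2+/- none passed with all libraries, and 9 fell without MS-275 replicate 3 (median −1.83). In replicate 2 of Runx2+/- MS-275, where Epcam was near vehicle levels, the 22 genes summed to 140.8 CPM. That sum lay below every Runx2+/- vehicle library and above every WT MS-275 library. Cldn4 stood at 4.07 CPM and Ap1m2 at 4.95 CPM in that replicate 2. Their ranges in Runx2+/- vehicle were 7.06 to 9.99 CPM and 9.32 to 12.4 CPM. The claudin genes Cldn6 and Cldn8 were singled out from the list after their values were seen. In the same library Cldn6, at 11.7 CPM, lay within its Runx2+/- vehicle range of 3.75 to 12.3 CPM. Cldn8, at 15.2 CPM, lay above its Runx2+/- vehicle range of 5.47 to 11.4 CPM.

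Partners and repressors of E-cadherin gave few calls. Of the 4 catenin genes, Jup, which encodes plakoglobin of adherens junctions and desmosomes, fell in WT MS-275 (log2 fold change −1.68, SE 0.36). Ctnnb1, which encodes β-catenin, rose (1.34, SE 0.37), and this call was lost when scaled by library size only (0.51, edgeR adjusted p = 0.0824). None of the 7 known repressors of Cdh1 (Snai1, Snai2, Zeb1, Zeb2, Twist1, Twist2 and Tcf3) was called in WT MS-275. Their log2 fold changes were −1.67 to 1.204, with a median of 0.46 that was −0.37 when scaled by library size only, where 2 were called lower (39.5% of all genes lower, 2.97% higher). Without the 3 libraries that stand apart, 4 of them were called higher, against 28.3% of all genes. The repressor list summed to 486, 545 and 435 CPM in Runx2+/- MS-275, 417, 407 and 461 CPM in Runx2+/- vehicle, 540, 584 and 522 CPM in WT MS-275 and 448, 449 and 523 CPM in WT vehicle. Of 4 mesenchymal cadherin and filament genes, Cdh11, a cadherin of bone-forming cells, rose in WT MS-275 (1.97, SE 0.54).

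Keratinocyte markers were low in the same 5 treated libraries as Trp63, Grhl1, Grhl3 and Ovol1, whereas Epcam was near vehicle levels in replicate 2 of Runx2+/- MS-275 with keratinocyte markers near 0. In those 5 libraries Cdh1 lay at 30.2 to 81.1 CPM and Klf4 at 58.8 to 121 CPM. Basal keratinocyte markers, 6 genes with Krt5 and Krt14, summed to 10.4, 11.2 and 694 CPM in Runx2+/- MS-275, 909, 440 and 339 CPM in Runx2+/- vehicle, 14.0, 18.1 and 8.63 CPM in WT MS-275 and 852, 521 and 1053 CPM in WT vehicle. All 6 fell in WT (median log2 fold change −5.95). Suprabasal keratinocyte markers, 8 genes, summed to 11.5, 10.8 and 1171 CPM in Runx2+/- MS-275, with a range of 877 to 1905 CPM in Runx2+/- vehicle, of 11.0 to 15.0 CPM in WT MS-275 and of 836 to 3279 CPM in WT vehicle. All 8 fell in WT. Their median was −8.04, or −7.48 with Casp14, at 0 counts in all treated WT libraries, set at the bound of 3 counts per library. In the 5 treated libraries with low sums, Casp14 was at 0 in 5, Flg2 in 4, Ivl in 2 and Dsg1a in 2, while no basal marker was at 0 in any library. Krt5, the keratin of basal cells, stood at 0.521, 2.21 and 0.259 CPM in WT MS-275 and at 362, 218 and 436 CPM in WT vehicle. Without Runx2+/- MS-275 replicate 3, all 6 basal and all 8 suprabasal markers fell in Runx2+/- as well.

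Simple epithelium markers (Krt7, Krt8, Krt18 and Krt19) summed to 40.4, 69.7 and 116 CPM in Runx2+/- MS-275, 148, 124 and 215 CPM in Runx2+/- vehicle, 46.2, 20.1 and 23.3 CPM in WT MS-275 and 139, 104 and 322 CPM in WT vehicle, and all 4 fell in WT (median −2.62). In replicate 2 of Runx2+/- MS-275, the library with partial Epcam, Esrp1 and Grhl2 levels, Krt7 stood at 8.06 CPM, Krt8 at 22.5 CPM, Krt18 at 25.4 CPM and Krt19 at 13.7 CPM. In replicate 1 the levels were 1.95, 8.45, 12.5 and 17.5 CPM in the same order of genes, so that Krt7, Krt8 and Krt18 were higher in replicate 2 and Krt19 lower. The summed level of replicate 2 lay below that of every vehicle library, while Krt5 stood at 0.239 CPM in replicate 2 and 0.186 CPM in replicate 1.

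Lens and melanocyte markers were also low in the WT MS-275 libraries and in replicates 1 and 2 of Runx2+/- MS-275. Skeletal muscle markers were not low in those replicates 1 and 2, with sums of 1430 and 1825 CPM against 750 to 2759 CPM in Runx2+/- vehicle. In WT MS-275, however, the muscle sums were 1057, 286 and 119 CPM, each below the 1689, 2917 and 1715.5 CPM of WT vehicle. Lens markers, 6 genes, summed to 6.97, 6.70 and 683 CPM in Runx2+/- MS-275, 732, 890 and 15.3 CPM in Runx2+/- vehicle, 7.81, 10.9 and 8.71 CPM in WT MS-275 and 1028, 945 and 12.5 CPM in WT vehicle, with Lim2 at 0 in 8 of the 12 libraries. Replicate 3 of each vehicle group, with few lens transcripts, still held all 9 genes, with Trp63 at 18.5 CPM in Runx2+/- vehicle and 55.9 CPM in WT vehicle. Lens markers therefore did not track the 9 genes in every library, and 0 of the 5 tested passed in WT. Without the 3 libraries that stand apart 5 were called lower, as were 31.8% of all genes. The vehicle libraries left out there were set apart by their few lens transcripts, so that lens count follows from the choice and is no evidence. All 5 melanocyte markers fell in WT (median −3.87), and their sums were 10.1, 22.3 and 69.5 CPM in Runx2+/- MS-275, 71.6, 72.5 and 45.4 CPM in Runx2+/- vehicle, 5.21, 2.70 and 3.45 CPM in WT MS-275 and 78.4, 76.2 and 61.8 CPM in WT vehicle.

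Of the other lists, 1 of 5 skeletal muscle markers (Ryr1) and 2 of 5 neuron markers (Nefm and Nefl) fell in WT MS-275. Osteoblast markers rose in 4 of 6 (median 2.17), myeloid markers in 3 of 5 and endothelial markers in 2 of 6. Scaled by library size only, 39.5% of all genes were called lower and 2.97% higher. In that fit 2 osteoblast, 0 myeloid and 1 endothelial marker passed as higher. As lower there passed 1 endothelial (Cldn5, named after its value was seen), 4 skeletal muscle and all 5 tested lens markers. With limma-voom 0 genes of any list passed. Osteoblast markers summed to 32199, 16850 and 1545 CPM in Runx2+/- MS-275, 11448, 4016 and 3630 CPM in Runx2+/- vehicle, 36924, 35137 and 25959 CPM in WT MS-275 and 7146, 5396 and 7568 CPM in WT vehicle. The mitochondrially encoded share of counts was 24.2%, 16.2% and 9.48% in Runx2+/- MS-275, 4.44%, 4.32% and 5.52% in Runx2+/- vehicle, 12.7%, 14.6% and 23.0% in WT MS-275 and 4.36%, 4.73% and 4.38% in WT vehicle. The part of the tissue content of the libraries, their RNA quality or their depth in the differences of the 9 genes was not tested.

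**Figure D3:**
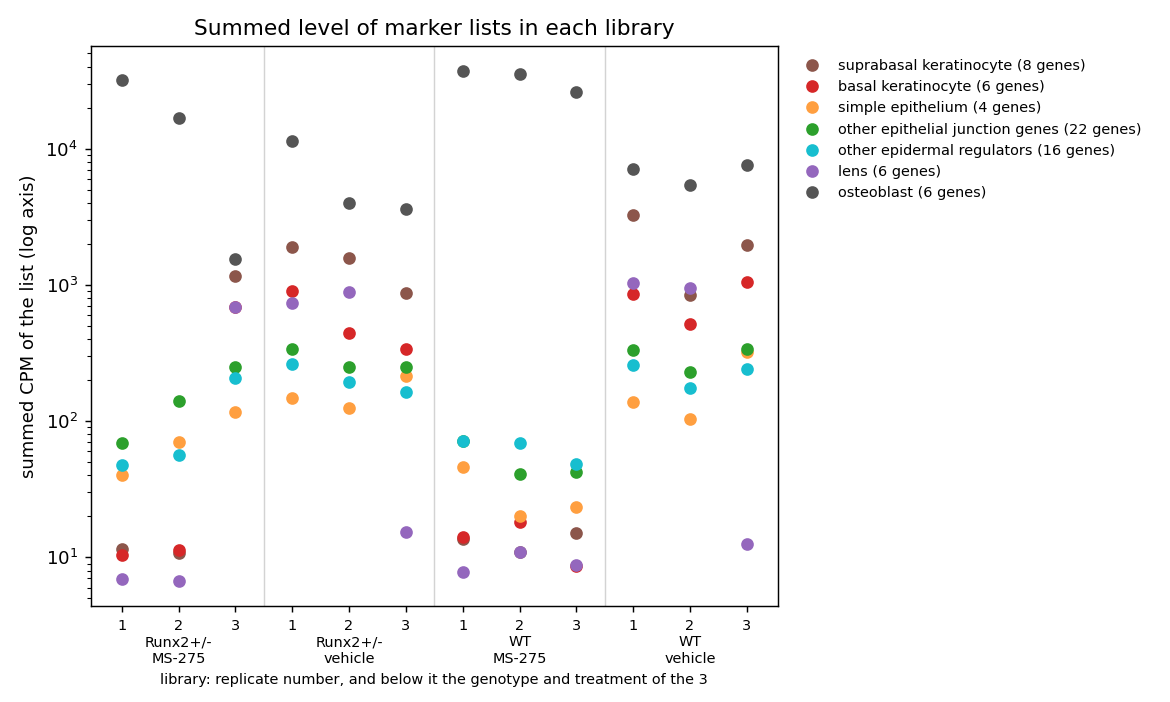
Summed CPM of 7 gene lists in each of the 12 libraries, on a log axis, by replicate and group. Keratinocyte lists lie at 8.63 to 18.1 CPM in the 3 WT MS-275 libraries and in replicates 1 and 2 of Runx2+/- MS-275, and at 339 CPM or more in the other 7 libraries, while the lens list is also low in replicate 3 of each vehicle group.

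The 9 genes were compared with each other by Pearson's r of log2 CPM over the 12 libraries. The libraries fall into groups set by the treatment and the points share the scaling, so r is given as a description. The correlation with the mean of the other 8 genes was 0.959 for Esrp1, 0.957 for Grhl2, 0.951 for Trp63, 0.942 for Grhl3, 0.932 for Grhl1, 0.915 for Ovol1 and 0.879 for Epcam. Cdh1 had 0.545 and Klf4 −0.42. Trp63 and Grhl3 were alike at 0.99, and Grhl2 and Esrp1 also at 0.99, while Epcam had 0.93 with Grhl2 and 0.82 with Trp63.

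**Figure D4:**
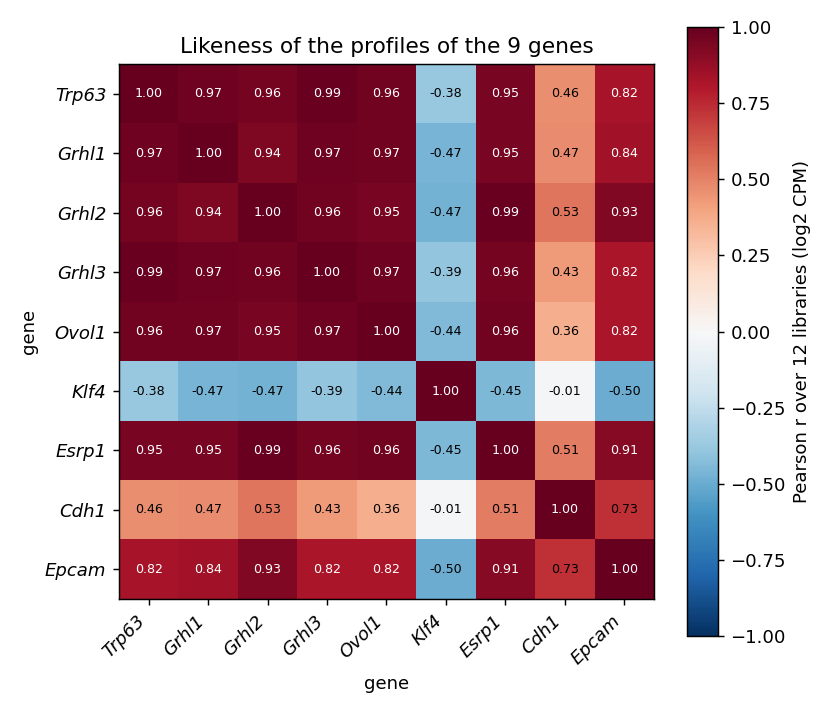
Pearson's r of log2 CPM over 12 libraries for each pair of the 9 genes, as colour and number. The block of Trp63, Grhl1, Grhl2, Grhl3, Ovol1 and Esrp1 has values of 0.94 or more, Epcam lies at 0.82 to 0.93 with that block, Cdh1 at 0.36 to 0.53 and Klf4 below 0.

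Among all other named genes, the 10 with the profile most like the mean of the 9 were Kdf1 (r = 0.987), Dsp, Spint2, Bspry, Fam83f, Rdh10, St14, Tead1, Fermt1 and Ccnjl (r = 0.978). Kdf1 encodes a keratinocyte differentiation factor, Dsp encodes desmoplakin, the plaque protein of desmosomes, and Spint2 and St14 encode a protease inhibitor and a membrane protease of epithelial surfaces. Dsp averaged 82.8 CPM in Runx2+/- MS-275 and 265 CPM in Runx2+/- vehicle, and 1.65 CPM in WT MS-275 against 339 CPM in WT vehicle. Spint2 averaged 10.7 CPM in Runx2+/- MS-275 and 33.3 CPM in Runx2+/- vehicle, and 3.57 CPM in WT MS-275 against 30.3 CPM in WT vehicle.

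The nearest profiles of the 2 genes that stood outside were of other kinds. For Klf4 they were Hes1, a Notch target (r = 0.973), Prrc1, Disp1, Cdyl and Wipi1 (r = 0.961). For Cdh1 they were Phlda1 (r = 0.892), Fbn2, Ldlrad3, Sdk1 and Tln2 (r = 0.867). Hes1 averaged 20.4 CPM in Runx2+/- MS-275 and 24.7 CPM in Runx2+/- vehicle, and 32.5 CPM in WT MS-275 against 25.5 CPM in WT vehicle, the same order of groups as Klf4. Phlda1 averaged 9.54 CPM in Runx2+/- MS-275 and 14.7 CPM in Runx2+/- vehicle, and 7.55 CPM in WT MS-275 against 13.5 CPM in WT vehicle, the same order of groups as Cdh1.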

How the data were processed

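RNA from 12 calvariae libraries was sequenced with a total RNA kit that marks strand, per the labels' protocols. The authors deposited 1 file per library, with whole-number counts for each Ensembl identifier and no normalization. The submitters' processing notes name Trimmomatic, Bowtie2, SAMtools and HTSeq without versions, and the build GRCh38.p7, a human build, although the identifiers are mouse. Depth was 13307456 to 19399760 counts in genes, and the 5 summary lines of each file were left out (5.21% to 22.2% of uniquely aligned reads in no gene, 3.25% to 4.78% ambiguous). Symbols were found for 37607 of 39179 identifiers. Exon length is the annotated exon union of GENCODE M21.

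Counts passing filterByExpr (17967 genes) were scaled by TMM and fitted in 1 model of 4 group means with edgeR 4.0.16 (R 4.3.3), with two-sided quasi-likelihood tests and Benjamini-Hochberg adjustment over all genes. Likeness used log2 CPM with a prior count of 2. Alternatives were DESeq2 1.42.0, limma-voom (limma 3.58.1), other scaling, no filter, a replicate block, each library left out, and only the groups compared. A fit without the 3 libraries that stand apart and a blocked fit of the vehicle libraries were added after seeing the data. Deviations of same-numbered vehicle libraries from their group means correlated at r = 0.22, 0.752 and 0.812. Differently numbered libraries were not compared, so whether replicate numbers pair the vehicle groups was not tested. The blocked fit of the 6 vehicle libraries called 0 of the 9 genes (edgeR adjusted p = 0.918 to 0.985). No pair of libraries of the same group agreed within sampling noise, and pairs from different groups were not compared. Scripts were tested on simulated data. The rule for genes named outside the 9 took at most the 3 called genes of each list with the largest change in WT in each direction, and the nearest profiles; 1 such gene is not reported here. Named outside that rule, after values were seen, were uncalled regulators, list genes at 0, the repressors, Cldn5, Cldn6 and Cldn8, besides Runx2 and Gm16136 as checks. The 9 genes and the lists were chosen with earlier results of these data known. Over all genes, the median log2 fold change was −0.13 in WT, −0.04 in Runx2+/-, −0.01 between vehicle groups and 0.05 between MS-275 groups, and −0.95, −0.48, 0.0031 and 0.40 when scaled by library size only.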

Additional observations from a re-analysis of the deposited data

How the results depend on the processing

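In WT the 7 genes called lower kept their direction under all 20 alternatives. The number called was 0 with limma-voom (adjusted p = 0.0522 to 0.0562), 0 with the replicate block (edgeR adjusted p = 0.086) and 0 to 7 with single libraries left out, and all 7 stayed past the threshold under the other scalings, without the filter, with DESeq2 and with the 6 WT libraries alone. The cause of the lost calls was not tested. With the 3 libraries that stand apart left out, 1 gene was called higher in WT and 6 lower in Runx2+/- (5216 of all genes lower and 4318 higher there), where leaving out single libraries gave 0 to 6. Under the drug, DESeq2 called 6 genes higher in Runx2+/- than in WT, and leaving out single libraries gave 0 to 3. For the interaction DESeq2 called 1. All genes called lower in WT numbered 1786, or 7104 when scaled by library size only, where 534 rather than 1842 were called higher, 3897 lower with DESeq2, 3874 with the WT libraries alone, 5742 without the 3 libraries that stand apart, 1 with limma-voom, 0 with the replicate block and 0 to 4444 with single libraries left out. Genes called higher there numbered 1080 without the filter, 3326 with DESeq2, 3438 with the WT libraries alone and 5120 without the 3 libraries.

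These values changed sign. Klf4 was −0.28 in WT when scaled by library size only, and 0.20 in Runx2+/- without the 3 libraries. Between the vehicle groups, the replicate block gave 0.094 for Grhl1 and 0.016 for Grhl2, and leaving out the 3 libraries gave 0.031 for Grhl1, 0.19 for Grhl2, 0.0018 for Ovol1 and 0.12 for Esrp1. With single libraries left out, values there ran from −0.29 to 0.33 for Grhl1, −0.30 to 0.22 for Grhl2, −0.48 to 0.15 for Grhl3, −0.39 to 0.10 for Esrp1 and −0.50 to 0.21 for Klf4, and the interaction of Cdh1 from −0.17 to 0.58. Deviations of same-numbered treated and vehicle libraries correlated at −0.66 to −0.04, and the WT count was 0 with the replicate block and 7 without. Whether replicate numbers pair treated with vehicle libraries was not tested. Between the MS-275 groups the block called 0, with correlations of −0.20, 0.28 and 0.17. Below about 3 counts per library, as for Grhl3 in WT MS-275, depth limits the size of a difference.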
